A study of Homo sapiens with 6 samples.

Results

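The genes that encode the protein components of the cytoplasmic ribosome were compared between ZNFX1 KO and wild-type (WT) TYK-nu cells, a human ovarian cancer cell line. Members were the protein-coding genes with a ribosomal protein name, after removal of the RPS6K kinase family and of names with a pseudogene ending. The rule found 90 genes, and 86 of them had 10 or more reads in at least 3 libraries, out of 62260 gene rows in the data. The 86 genes are 31 small-subunit proteins, 43 large-subunit proteins, 3 proteins of the ribosomal stalk, 6 paralogues and 3 readthroughs. Readthrough transcripts run on into a neighbouring gene. The other 4, RPS4Y1, RPS4Y2, RPL10L and RPL3L, had 0 reads in their gene rows in all 6 libraries.

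The study sequenced total RNA of 3 ZNFX1 KO and 3 WT samples. Both groups were the same cell line, untreated and under the same batch label, so loss of ZNFX1 is the only labelled difference. How the knockout was made, and whether the KO samples come from a clone or a pool, is not given in the sources used here. ZNFX1 is an RNA helicase-like protein that binds viral RNA in the innate immune response. Levels are given as CPM, read counts scaled to the library's total after its adjustment by edgeR's TMM factor. ZNFX1 had 103, 70.5 and 75.2 CPM in ZNFX1 KO 1, 2 and 3, against 129.7, 208 and 109 CPM in WT 1, 2 and 3. Its messenger RNA was thus lower in every KO library than in every WT library, without being lost (log2 fold change -0.85, SE 0.27; adjusted p = 0.218 by edgeR). For its level the exact permutation p (two-sided) was 0.1, the smallest possible with 3 libraries against 3.

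Each ribosome carries a small subunit, which reads the messenger RNA, and a large subunit, which joins amino acids. Nearly every ribosomal protein is encoded by its own gene, and the proteins are needed in matched amounts, because each subunit holds a fixed number of copies of each. Messenger RNAs of ribosomal proteins are abundant, and they typically begin with a C followed by a run of pyrimidines (the 5′ terminal oligopyrimidine or TOP motif), through which the growth-regulating kinase mTOR controls their translation. Several genes also carry small nucleolar RNAs, which guide the modification of ribosomal RNA, in their introns.

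The start of the gene carries the TOP motif, so the bases around the start are shown for the members on which the results below turn. RefSeq promoters (GRCh38.p14) were matched for 69 of the 86 members. Each sequence has 15 bases before the annotated start and 15 from it, and capitals mark the run of 5 or more C or T that begins with C within 5 bases of the start. Where several starts are annotated, the start with the longest run is shown.
RPS4X (chrX:72277234-72277263, minus strand): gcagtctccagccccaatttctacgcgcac
RPL36A (chrX:101390996-101391025, plus strand): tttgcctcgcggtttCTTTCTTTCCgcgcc
RPL39 (chrX:119791616-119791645, minus strand): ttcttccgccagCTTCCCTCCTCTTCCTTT
RPL10 (chrX:154398362-154398391, plus strand): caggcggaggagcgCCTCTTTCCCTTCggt
RPL36AL (chr14:49620612-49620641, minus strand): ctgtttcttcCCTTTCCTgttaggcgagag
RPL22 (chr1:6199581-6199610, minus strand): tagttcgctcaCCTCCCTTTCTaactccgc
RPL22L1 (chr3:170870181-170870210, minus strand): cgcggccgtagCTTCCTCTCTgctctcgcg
RPLP0 (chr12:120201097-120201126, minus strand): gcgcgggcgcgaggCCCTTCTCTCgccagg
RPL11 (chr1:23691791-23691820, plus strand): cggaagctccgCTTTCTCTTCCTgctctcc

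Such a run stood at an annotated start of 56 of the 69 matched members (81.2%), against 25.2% of the 27305 genes with a RefSeq promoter. In these starts the run is absent from RPS4X and present in the other 8, so members with lower values in every KO library (RPL36A, RPL11) and members with higher ones (RPL22L1, RPL36AL) both hold a run. In the 250 bases before the start, read on both strands and with overlaps between motifs left in, CGGAAG, which holds the core bound by ETS-family factors, was found for 60.9% of matched members and 19.4% of genes. GGGCGG, the GC box bound by Sp1, was found for 58.0% and 46.2%, and TATAAA, the TATA box, for 10.1% and 13.1%. A match describes letters only and says nothing of whether a factor is bound.

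Libraries held 21413002 to 23494771 fragments, and reads of the same group differed by far more than counting noise in each pair of libraries. Between 9.93% and 10.7% of fragments lay in rows for transcripts kept apart from the gene rows. Rows that could be joined to a gene held 8.10% to 8.80% of all fragments, and 15.1% to 15.7% of ribosomal protein reads. All values below come from gene rows unless transcript rows are named. Of the markers listed for ovarian carcinoma cells, KRT18 was at 38.9 to 88.6 TPM, a level per transcript length, and KRT8 at 3.76 to 11.5 TPM, whereas SOX17 and MUC16 were at 0 and PAX8 and KRT7 were below 0.05 TPM. Of the 9 listed, 4 were tested, with log2 fold changes from -1.36 to 0.55, 2 above zero and 2 below. None of these 4 passed the edgeR test. The leukocyte marker PTPRC was at 0 and CD68 was at 80.2 to 182 TPM, and the endothelial markers CDH5 and PECAM1 were at 67.5 to 103 and at 16.2 to 69.9 TPM. Another leukocyte marker, LYZ, was low but higher in every KO library, at 8.16, 2.92 and 2.97 CPM in KO, against 0.460, 1.01 and 2.83 CPM in WT. CD68 went the other way, with a log2 fold change of -0.61 beside 1.70 for LYZ, and neither passed the edgeR test. The part of these markers in the results was not tested. In bulk RNA, fewer cells of a type cannot be told apart from less RNA per cell.

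The summed level of the ribosomal protein genes overlapped between the genotypes. They took 5.80%, 4.23% and 5.24% of gene fragments in ZNFX1 KO 1, 2 and 3, against 6.10%, 5.88% and 5.03% in WT 1, 2 and 3. The means were 5.09% ± 0.797 in KO and 5.67% ± 0.563 in WT (SD, n = 3 each), and the ranges overlap. Their TPM summed to 72510, 66550 and 70900 in the KO libraries and to 73470, 69060 and 74570 in the WT libraries, also with overlap.

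By edgeR's quasi-likelihood test, 0 of the 86 members passed an adjusted p of 0.05, where 0.727% of all 14166 genes tested did (103 genes; 38 or 0.268% higher, and 65 or 0.459% lower). At an unadjusted p under 0.05, 3 members were higher (RPL22L1, RPS16 and RPL36AL), as were 5.92% of all genes, and 5 were lower (RPS4X, RPL36A, RPL36A-HNRNPH2, RPL13 and RPL11), as were 9.19% of all genes. DESeq2 called 3 members, RPL22L1 higher and RPS4X and RPL36A lower, where it called 4.09% of all genes. limma-voom called 0 members, where it called 0.536% of all genes. The smallest edgeR adjusted p of a member was 0.146, that of RPL22L1, which was called when no filter on low counts was used. Without WT 3, edgeR called 4 members (RPS4X, RPL13 and RPL36A lower, RPS27L higher) among 1315 of 14585 genes in all, and without any other library it called 0 members.

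The fitted log2 fold changes of the 86 members had a median of -0.04, beside -0.01 over all genes tested, and 79 lay within 0.5 of zero. Of them 33 were above zero and 53 below. Standard errors ran from 0.16 to 0.34, so that most members cannot be told from no difference, nor from a change of modest size. The sign of the median rested on single libraries: it was 0.04 without WT 1 and 0.07 without ZNFX1 KO 2, and -0.12 without WT 3 or without ZNFX1 KO 1. The 414 genes at least as abundant as the lowest quartile of the members, members included, leaned the other way. Their median was 0.13, with 266 above zero and 148 below. The members at either end of the distribution of the 86 are described in the following paragraphs.

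**Figure D1:**
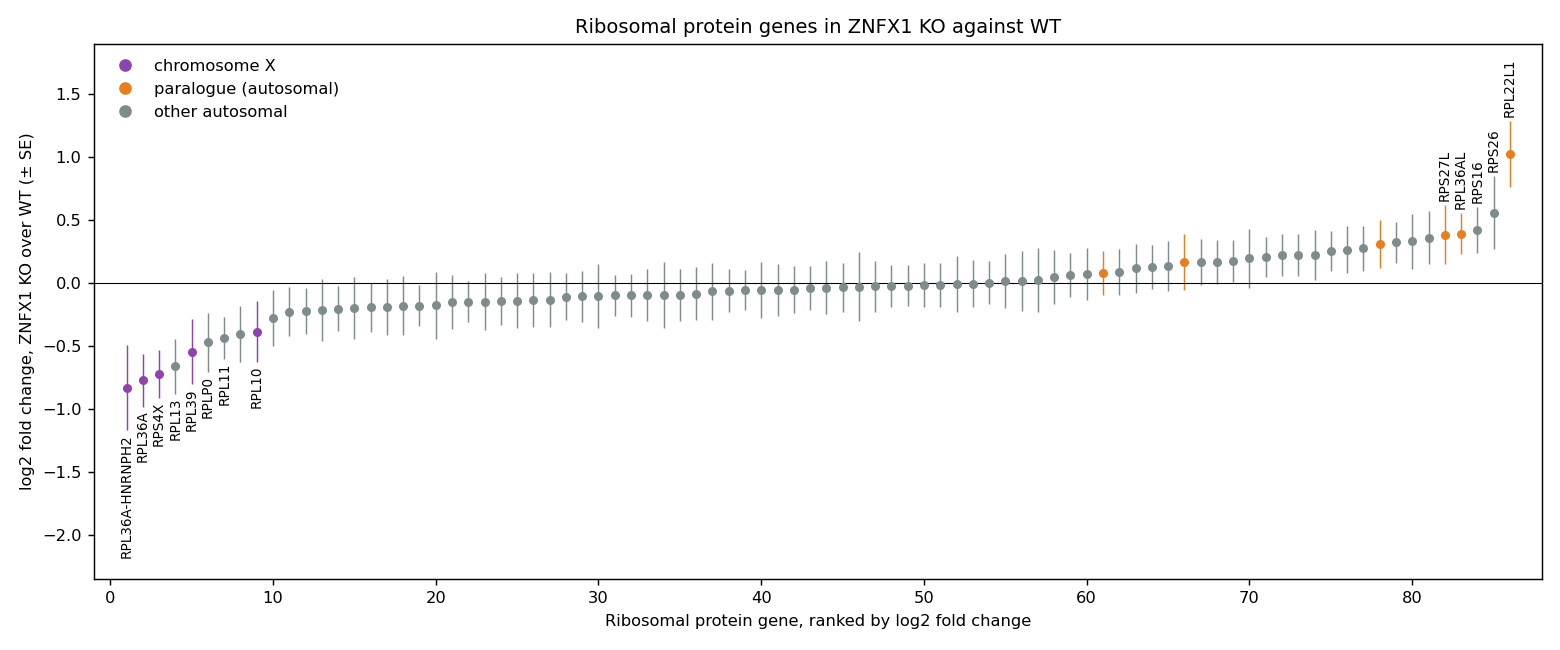
log2 fold change (ZNFX1 KO over WT, vertical axis) with its standard error for the 86 ribosomal protein genes, ranked from lowest to highest along the horizontal axis. The 5 genes on chromosome X (purple) are all below zero, the 6 paralogues (orange) are all above it, and RPL22L1 is the highest at 1.03.

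Small-subunit genes had a median log2 fold change of -0.02, with 14 above zero and 17 below. Large-subunit genes had a median of -0.11, with 9 above and 34 below. The difference between the subunits was not tested. The 28 subunit and stalk genes that host a small nucleolar RNA and the 49 that host none both had a median of -0.06.

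Among large-subunit genes, RPL5 and RPL11 encode proteins that, with 5S ribosomal RNA, bind and restrain MDM2 when ribosome assembly is disturbed. RPL5 was at 930, 800.1 and 864 CPM in the KO libraries, against 893, 851 and 736 CPM in the WT libraries. These ranges overlap, and the log2 fold change was 0.06 (SE 0.17). RPL11 was at 652, 590 and 582 CPM in the KO libraries, against 872, 845 and 745 CPM in the WT libraries. Every KO library was below every WT library for RPL11, with a log2 fold change of -0.43 (SE 0.17) that did not pass the test (edgeR adjusted p = 0.286).

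The stalk recruits elongation factors to the ribosome through RPLP0 and pairs of RPLP1 and RPLP2. RPLP0 was at 3427, 2015 and 2638 CPM in the KO libraries, against 4216, 3689 and 3294 CPM in the WT libraries. ZNFX1 KO 1 lay above WT 3, so the groups overlap, and the log2 fold change was -0.47 (SE 0.24; adjusted p = 0.384 by edgeR). RPLP1 was at 614, 466 and 551 CPM in KO and 561, 433 and 402 CPM in WT, with a log2 fold change of 0.22 (SE 0.20). RPLP2 was at 777, 484 and 663 CPM in KO and 676, 626 and 559 CPM in WT, with a log2 fold change of 0.05 (SE 0.21). The 3 stalk messenger RNAs thus had estimates on both sides of zero, none past the test.

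The most abundant members per transcript length were RPS18, RPL37A, RPL41, RPS27 and RPLP0, with means of 2719, 2646, 2496, 2175 and 2167 TPM over the 6 libraries. RPS27, a small-subunit protein with a zinc finger, was at 2391, 2382 and 2423 TPM in the KO libraries, against 1986, 1922 and 1943 TPM in the WT libraries. On the TPM scale the groups are thus separate and tight, whereas its CPM (755, 623 and 720.2 in KO, 645, 620.1 and 483 in WT) had ZNFX1 KO 2 below WT 1. Its log2 fold change from counts was 0.26 (SE 0.19; adjusted p = 0.518 by edgeR). RPS18 had a log2 fold change of -0.15, RPL37A of -0.08 and RPL41 of -0.11, all with overlapping groups.

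The least abundant kept members were the readthroughs RPS10-NUDT3 (mean 5.10 TPM) and RPL17-C18orf32 (7.87 TPM), the paralogues RPL39L (13.8 TPM) and RPL7L1 (33.6 TPM), and RPL14 (38.2 TPM). The low place of RPL14, a large-subunit protein, goes with its rows: 84.8% of its reads lay in transcript rows outside the gene row. That share was, for example, 77.1% for RPL23A, 75.7% for RPL4, 73.8% for RPSA, 71.3% for RPL10, 56.7% for RPL8 and 40.9% for RPL13. The gene-row levels of such members understate the gene. With transcript rows joined to their genes, 0 members were called, where 1.27% of 14743 genes were.

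The members with the lowest fold changes lie mainly on chromosome X. Its 5 kept members, RPS4X, RPL36A, the readthrough RPL36A-HNRNPH2 that shares exons with it, RPL39 and RPL10, all had a log2 fold change below zero, with a median of -0.72. The 81 autosomal members had a median of -0.03. None of the 5 passed the edgeR test.

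RPS4X (chromosome X, 72255679 to 72277300, minus strand, GRCh38) encodes a small-subunit protein that has a counterpart on the Y chromosome. It was at 1104, 861 and 945 CPM in ZNFX1 KO 1, 2 and 3, against 1678, 1767 and 1363 CPM in WT 1, 2 and 3. All KO libraries were below all WT libraries, with a log2 fold change of -0.72 (SE 0.19; adjusted p = 0.156 by edgeR; DESeq2 adjusted p = 0.0109). RPL36A (chromosome X, 101390824 to 101396154, plus strand), a large-subunit protein, was at 255, 162 and 207 CPM in KO, against 372, 386 and 308 CPM in WT. Its groups were also separate, with a log2 fold change of -0.77 (SE 0.21; adjusted p = 0.159 by edgeR; DESeq2 adjusted p = 0.0227). The readthrough RPL36A-HNRNPH2 was at 51.3, 23.7 and 45.7 CPM in KO, against 74.3, 94.9 and 46.0 CPM in WT, with overlapping groups, and its reads cannot be fully told from those of RPL36A.

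RPL39 and RPL10 behaved differently from one KO library to another. RPL39 (chromosome X, 119786504 to 119791643, minus strand), one of the smallest proteins of the large subunit, was at 797, 412 and 522 CPM in KO, against 825, 960.1 and 743 CPM in WT. ZNFX1 KO 1 lay within the WT range and the other KO libraries below it (log2 fold change -0.55, SE 0.26; adjusted p = 0.359 by edgeR). RPL10 (chromosome X, 154389955 to 154409168, plus strand), which helps join the subunits, was at 436, 240.3 and 295 CPM in KO, against 431, 470 and 369 CPM in WT. Here too ZNFX1 KO 1 was at the WT level and the other KO libraries were below it (log2 fold change -0.39, SE 0.24; adjusted p = 0.466 by edgeR). With its transcript rows joined, RPL10 had 1335, 705 and 931 CPM in KO and 1425, 1563 and 1180 CPM in WT, again with ZNFX1 KO 1 within the WT range.

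Summed over the 4 subunit genes on chromosome X, their reads made up 4.47%, 3.84% and 3.74% of all subunit and stalk reads in the KO libraries, against 5.40%, 6.36% and 5.83% in the WT libraries. The means were 4.01% ± 0.395 in KO and 5.86% ± 0.481 in WT (SD, n = 3 each), and the ranges are apart. This share compares members within a library, so it does not depend on the scaling between libraries. With transcript rows joined the means were 4.70% ± 0.572 in KO and 6.81% ± 0.577 in WT.

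**Figure D2:**
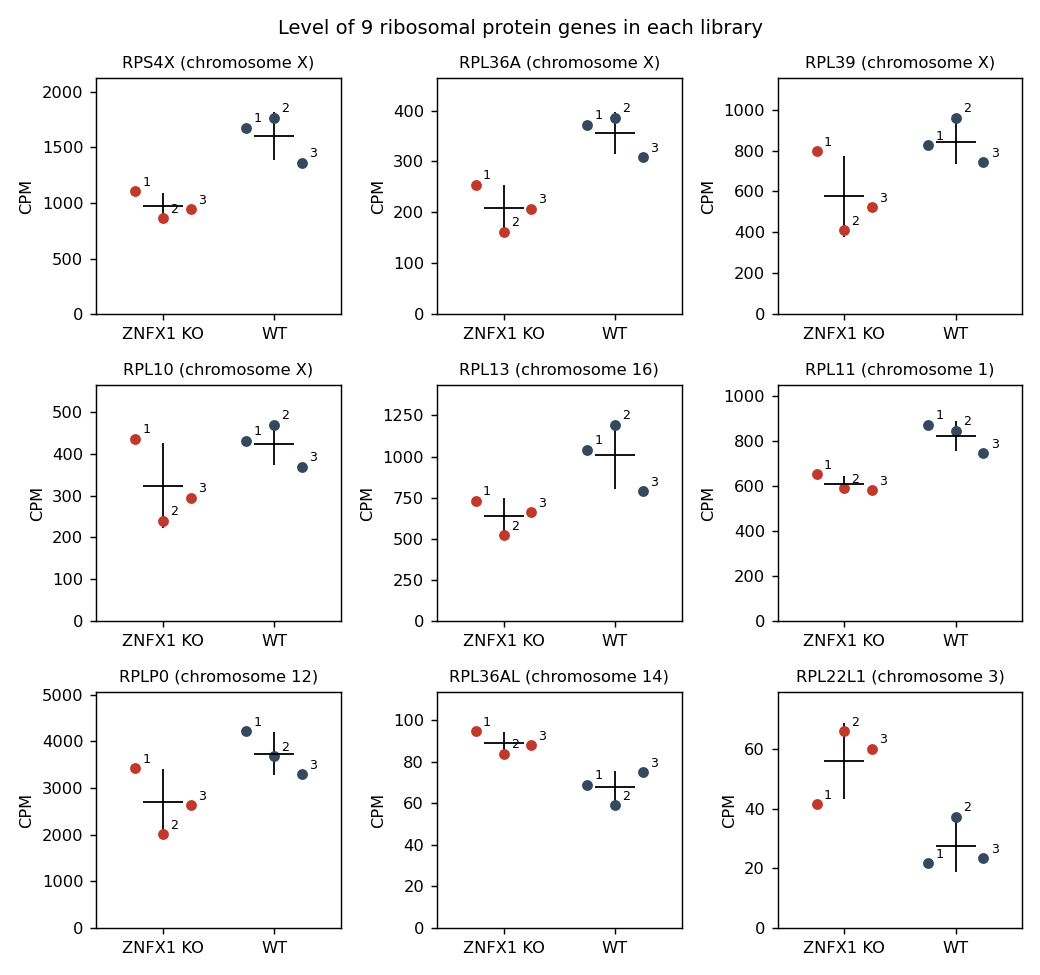
Level in CPM (vertical axes, from 0) of 9 ribosomal protein genes in each of 3 ZNFX1 KO (red, left) and 3 WT (dark, right) libraries, numbered by replicate, with the mean and SD as bars. From gene rows, RPS4X, RPL36A, RPL13 and RPL11 are lower in every KO library than in every WT library. RPL36AL and RPL22L1 are higher, and RPL39, RPL10 and RPLP0 overlap through ZNFX1 KO 1.

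A shift of the same sign was seen across chromosome X. The 420 other X-linked genes tested had a median log2 fold change of -0.37, with 331 below zero (78.8%), and 12 were called lower and 0 higher by edgeR. Of these genes 31.2% had every KO library below every WT library, beside 10.8% of all genes. The 13125 other autosomal genes had a median of -0.00, with 50.1% below zero. The shift did not run along the whole chromosome: the 70 genes in its first 30 Mb had a median of 0.12, and the 350 genes beyond, where all 5 members lie, had a median of -0.42. The cut at 30 Mb was not fixed in the plan made for the tests.

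The members were therefore set beside their neighbours, the tested genes within 5 Mb that are not ribosomal protein genes and do not overlap the member. Of the 11 members whose neighbours had a median log2 fold change under -0.25, all 11 were below zero, with a median of -0.47. The other 75 had a median of -0.02, with 42 below zero. The cut at -0.25 was not fixed in the plan made for the tests either. Across the 86 members, fold change and neighbour median had Pearson's r = 0.687 and Spearman's rho = 0.543, and across the 81 autosomal members r = 0.543 and rho = 0.454. These are descriptions across genes that share the same 6 libraries, and members near each other share neighbours.

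The autosomal members of that group lie on chromosomes 1, 8, 12 and 16. RPL13 (chromosome 16, 89560657 to 89566828, plus strand), a large-subunit protein, was at 732, 521 and 662 CPM in KO, against 1043, 1195 and 789 CPM in WT. From gene rows the groups were separate, with a log2 fold change of -0.66 (SE 0.22, adjusted p = 0.238 by edgeR). With transcript rows joined, RPL13 had 1158, 857 and 1111 CPM in KO and 1605, 1758 and 1152 CPM in WT. ZNFX1 KO 1 then lay above WT 3, so the groups overlap, and the joined log2 fold change was -0.53 (SE 0.22). The 60 neighbours of RPL13 had a median of -0.36, with 52 below zero. RPLP0 had 102 neighbours with a median of -0.37, RPL11 had 120 with a median of -0.29, and RPL22 had 87 with a median of -0.36. RPL8 and RPL6, large-subunit genes that were picked with their values known, had log2 fold changes of -0.40 and -0.03. Their neighbour medians were -0.32 and -0.30. With transcript rows joined, the log2 fold changes were -0.27 for RPL8 and -0.02 for RPL6. RPL6 thus had an estimate near zero although 54 of its 71 neighbours were below zero.

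Library by library, the members matched their neighbours in part. Relative to the mean of the 6 libraries, RPL39 stood at 0.22, -0.73 and -0.39 on the log2 scale in ZNFX1 KO 1, 2 and 3, and the median of its neighbours at 0.11, -0.28 and -0.38. RPL10 stood at 0.26, -0.60 and -0.30 in the KO libraries, and its neighbours at 0.13, -0.53 and -0.35. RPS4X was below the mean in all 3 KO libraries, at -0.17, -0.53 and -0.39, and so were its neighbours, at -0.34, -0.19 and -0.30. ZNFX1 KO 1 was thus above the mean for RPL39, RPL10 and the genes around them, and below it for RPS4X and the genes around it. The order of the KO libraries was not shared, however: RPS4X was lowest in ZNFX1 KO 2, where its neighbours were least low. RPL36A stood at -0.08, -0.73 and -0.38 in the KO libraries, and its neighbours at -0.21, -0.10 and -0.20. Among the KO libraries, the median autosomal member also stood highest in ZNFX1 KO 1 and lowest in ZNFX1 KO 2. It was at 0.18, -0.21 and 0.06 in ZNFX1 KO 1, 2 and 3. The part of the regions, and of this order shared by the autosomal members, in the values above was not tested.

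**Figure D3:**
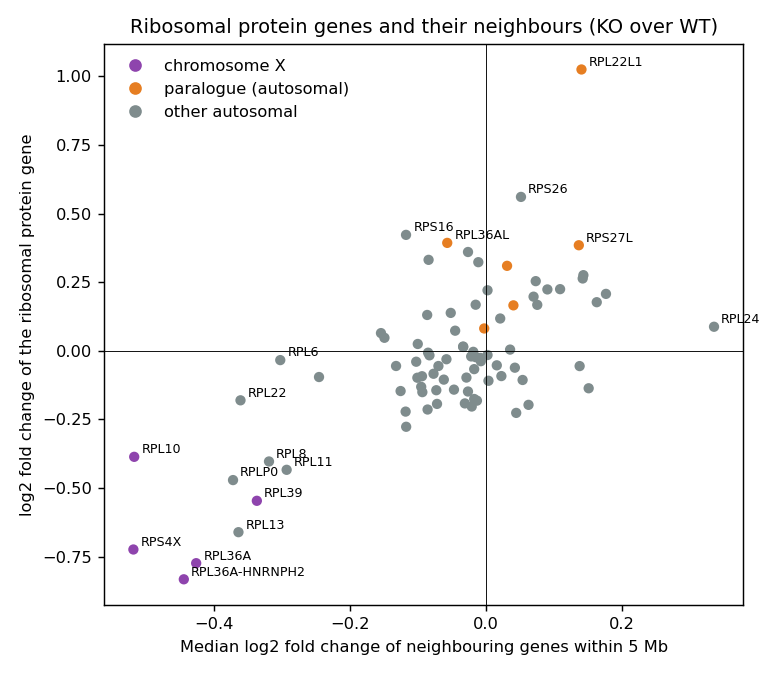
log2 fold change (ZNFX1 KO over WT) of each of the 86 ribosomal protein genes (vertical axis) against the median log2 fold change of the other tested genes within 5 Mb (horizontal axis). The 11 genes with a neighbour median under -0.25 all lie below zero on the vertical axis, and RPL22L1 stands highest at 1.03 with a neighbour median of 0.14.

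At the other end, all 6 paralogues had a log2 fold change above zero, with a median of 0.35. Each is a second gene for a protein related to that of a parent gene. RPL22L1 (chromosome 3, 170864875 to 170870483, minus strand), the paralogue of RPL22, was at 41.6, 66.1 and 60.2 CPM in the KO libraries, against 21.7, 37.4 and 23.4 CPM in the WT libraries. All KO libraries were above all WT libraries, with a log2 fold change of 1.03 (SE 0.27; adjusted p = 0.146 by edgeR; DESeq2 adjusted p = 0.0134). Of its reads 39.9% lay in transcript rows, and with these joined the log2 fold change was 0.59 (SE 0.19; adjusted p = 0.194 by edgeR), with every KO library still above every WT library (66.4, 85.4 and 76.4 CPM in KO, 52.5, 59.5 and 39.9 CPM in WT).

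In mouse cells, the protein RPL22 is known to lower its paralogue's messenger RNA. RPL22 itself was at 353, 308 and 302 CPM in KO, against 389, 337 and 366 CPM in WT, with overlapping groups and a log2 fold change of -0.18 (SE 0.16; adjusted p = 0.607 by edgeR). On the TPM scale, RPL22L1 stood at 27.4%, 55.7% and 48.3% of RPL22 in KO, against 13.2%, 25.9% and 15.4% in WT. These ranges do not overlap, and the exact permutation p (two-sided) was 0.1, again the smallest possible. With transcript rows joined the percentages were 39.9%, 62.6% and 51.4% in KO and 28.6%, 35.0% and 23.0% in WT.

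RPL36AL, the autosomal counterpart of RPL36A on chromosome 14, was at 94.6, 83.8 and 87.8 CPM in KO, against 68.9, 58.9 and 74.8 CPM in WT. Its groups were separate, with a log2 fold change of 0.39 (SE 0.16; adjusted p = 0.309 by edgeR). Relative to RPL36A it stood at 19.9%, 28.1% and 22.4% in KO, against 9.92%, 7.97% and 13.1% in WT on the TPM scale. The paralogue and its X-linked parent thus had estimates in opposite directions, with separate groups for each, and the ratio had an exact permutation p = 0.1. The proteins of the pair are nearly identical, and whether reads are split between the genes was not tested.

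RPL39L, the testis-enriched counterpart of RPL39, was at 15.6, 10.6 and 12.1 CPM in KO, against 13.3, 10.7 and 10.1 CPM in WT, and these ranges overlap. As a percentage of RPL39 TPM it stood at 0.784%, 1.04% and 0.930% in KO, against 0.646%, 0.448% and 0.543% in WT, which do not overlap. Between the pair, RPL39 had the estimate of -0.55 given above and RPL39L a log2 fold change of 0.17 (SE 0.22). RPL7L1, RPL26L1 and RPS27L had log2 fold changes of 0.08, 0.31 and 0.38, and their percentages of RPL7, RPL26 and RPS27 overlapped between the groups. For RPS27L, WT 3 had 47.3 CPM and the other WT libraries 28.8 and 26.6 CPM, while the KO libraries had 46.5, 46.8 and 40.8 CPM.

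**Figure D4:**
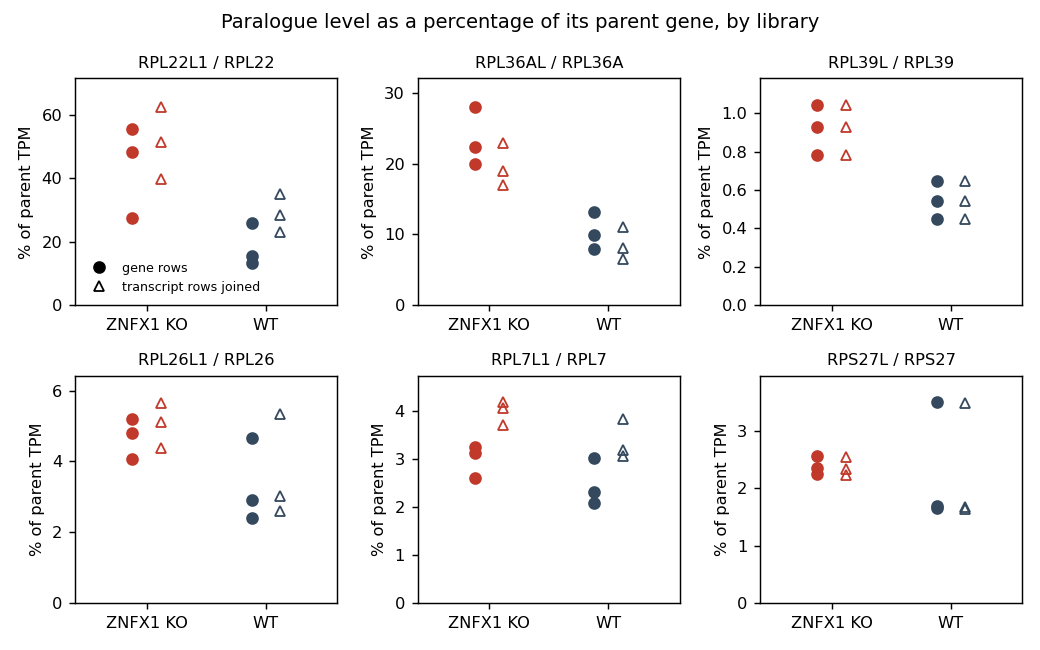
TPM of each of 6 paralogues as a percentage of its parent gene (vertical axes, from 0) in each ZNFX1 KO (red, left) and WT (dark, right) library, from gene rows (filled circles) and with transcript rows joined (open triangles). The libraries of the 2 groups are apart for RPL22L1, RPL36AL and RPL39L and overlap for RPL26L1, RPL7L1 and RPS27L.

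Other members with higher estimates in KO were RPS26, RPS16 and RPL23A, which encode a small-subunit protein at the exit channel of the messenger RNA, another small-subunit protein and a large-subunit protein at the tunnel exit. RPS26 was at 187, 129 and 179 CPM in KO, against 105, 72.4 and 158 CPM in WT. WT 3 lay within the KO range, and the log2 fold change was 0.56 (SE 0.29; adjusted p = 0.392 by edgeR). RPS16 was at 204, 229 and 204 CPM in KO, against 190, 147 and 138 CPM in WT. Its groups were separate, with a log2 fold change of 0.42 (SE 0.18; adjusted p = 0.320 by edgeR). RPL23A had a log2 fold change of 0.36 (SE 0.21) from gene rows and of 0.17 with transcript rows joined.

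Over all 86 members, the KO libraries were all above the WT libraries for 7 genes (RPS27A, RPL21, RPS13, RPL23, RPL36AL, RPS16 and RPL22L1), where this held for 9.39% of all genes. They were all below for 4 genes (RPL36A, RPS4X, RPL13 and RPL11), where this held for 10.8% of all genes, or 20.2% for both directions. Of these 4, RPL13 overlapped with transcript rows joined. Separate groups were thus no more frequent among the members than among all genes tested, in either direction. Abundant genes differed from this background. Of the 414 genes at least as abundant as the lowest quartile of the members, members included, 70 were all above and 16 all below. ZNFX1 KO 2 was the lowest of the 6 libraries for 44 members and WT 3 for 27, and WT 1 was the highest for 34 and ZNFX1 KO 1 for 30.

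Levels also varied from library to library within each genotype. Relative to the 6-library mean, the median member stood at 0.18, -0.21 and 0.04 in ZNFX1 KO 1, 2 and 3, against 0.19, 0.06 and -0.16 in WT 1, 2 and 3. Both low libraries had the largest share of mitochondrial ribosomal RNA in their group, 14.8% in ZNFX1 KO 2 against 9.93% and 10.7% in the other KO libraries, and 12.5% in WT 3 against 11.0% and 11.5% in the other WT libraries. The same libraries had the smallest share of the noncoding RNAs 7SL and 7SK in their group. It was 5.50% in ZNFX1 KO 2 against 8.04% and 7.43% in ZNFX1 KO 1 and 3, and 5.89% in WT 3 against 8.53% and 9.55% in WT 1 and 2. The part of these shares in the members' levels was not tested. The median X-linked member stood at 0.00, -0.73 and -0.38 in KO and at 0.44, 0.51 and 0.12 in WT.

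**Figure D5:**
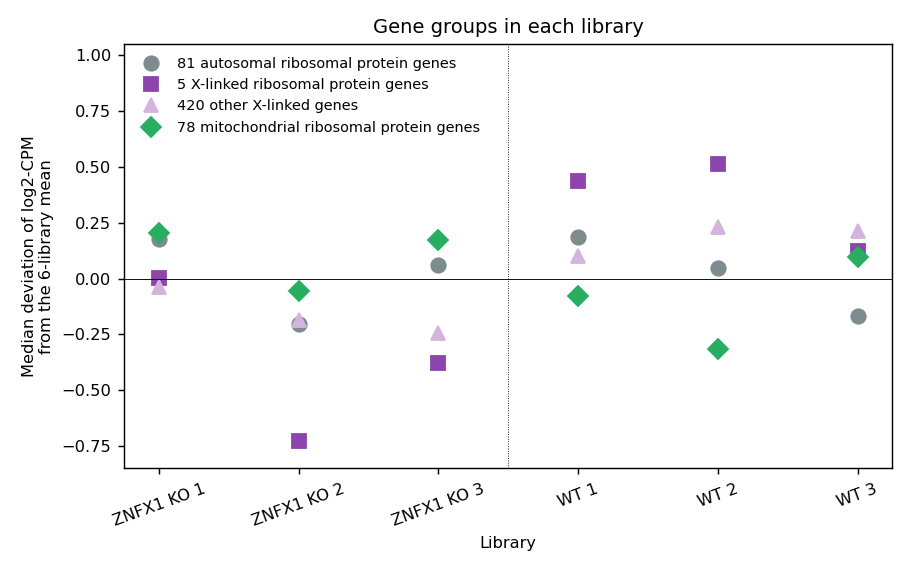
Median deviation of log2-CPM from the 6-library mean (vertical axis) for 4 groups of genes in each ZNFX1 KO (left) and WT (right) library. Autosomal ribosomal protein genes are high and low within both genotypes, whereas the X-linked members run from -0.73 to 0.00 in KO and from 0.12 to 0.51 in WT.

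Genes that work with the ribosomal proteins had list medians from -0.36, for host genes of small nucleolar RNAs, to 0.13, for translation genes. In every list 0 genes passed the edgeR test. Without WT 3, where it called 1315 of 14585 genes, it called 3 of 41 translation genes, 10 of 87 ribosome assembly genes and 4 of 78 mitochondrial ribosomal protein genes. FAU, which encodes a ribosomal protein fused to a ubiquitin-like domain, had a log2 fold change of -0.12, and the ribosome-bound scaffold RACK1 had -0.14. The 41 translation factors and other TOP messenger RNAs had a median of 0.13, with 28 above zero and 13 below. Among them the elongation factor EEF1A1 had 0.05 (SE 0.21) and VIM, which encodes vimentin, -0.04 (SE 0.28). The 414 genes at least as abundant as the lowest quartile of the members also had a median of 0.13, with 266 above zero and 148 below. These 414 include most of the members themselves.

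The 11 tested host genes of small nucleolar RNAs that make no ribosomal protein had a median of -0.36, with 10 below zero. GAS5 was at 306, 287 and 296 CPM in KO, against 391, 547 and 218 CPM in WT, and SNHG6 had a log2 fold change of -0.46 (SE 0.25). The WT range of GAS5 covers all of its KO libraries. The gene above zero, SNHG1, was picked with its values known and was at 5.24, 1.11 and 0.782 CPM in KO, against 0, 0.304 and 0.410 CPM in WT. Its log2 fold change was 3.27 (SE 0.99; adjusted p = 0.198 by edgeR; DESeq2 adjusted p = 0.0200), and 1.95 without ZNFX1 KO 1. Most of its reads lay in transcript rows, and with these joined it was 0.29. The 87 ribosome assembly genes had a median of 0.12, with 63 above zero, among them the small nucleolar RNA-binding NOP10 (0.04, SE 0.20). Nucleolin (NCL) was at 489, 753 and 575 CPM in KO, against 393, 248 and 634 CPM in WT, with a log2 fold change of 0.51 (SE 0.33) that ran from 0.24 without WT 2 to 0.94 without WT 3. The 15 tested genes of the mTOR pathway and other regulators of TOP messenger RNAs had a median of -0.03, among them EIF4EBP1, which holds back cap-dependent translation (-0.53, SE 0.26), and the mTOR activator RHEB (-0.04, SE 0.16).

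Ribosomal protein genes of mitochondria, which serve the separate ribosome of that organelle, had a median log2 fold change of 0.21 over 78 genes, with 63 above zero. Every KO library was above every WT library for 16 of them, as it was for 9.39% of all genes tested. Every KO library was below every WT library for 1 of them, as it was for 10.8% of all genes tested. MRPL52 was at 84.8, 75.2 and 94.8 CPM in KO, against 54.8, 37.6 and 66.6 CPM in WT (log2 fold change 0.68, SE 0.23; adjusted p = 0.236 by edgeR). MRPL51 was at 93.3, 78.0 and 86.7 CPM in KO, against 53.7, 50.3 and 82.5 CPM in WT, where WT 3 lay within the KO range. The cytoplasmic members, at a median of -0.04, thus had lower estimates than their mitochondrial counterparts, a difference that was not tested.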

How the data were processed

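Total RNA of 3 ZNFX1 KO and 3 WT samples was sequenced from a stranded kit, per the labels' protocols. The authors made estimated counts of fragments per gene with Salmon, as deposited, per the labels. The deposited files hold the authors' TPM values and effective lengths beside them, per the labels. Per the submitters' processing notes, FastQC and Trimmomatic were also used, as was DESeq2. Their genome build and any use of strand in counting: not given in the sources used here, so reads of overlapping antisense genes cannot be told apart.

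Estimated counts of the 62260 gene rows were rounded and tested with edgeR 4.0.16 (quasi-likelihood, TMM, filterByExpr, R 4.3.3) across all 14166 kept genes, with Benjamini-Hochberg adjustment and calls at 0.05. The 134909 transcript rows were left out, and 103521 of them were joined to genes as an alternative. Pseudogene rows named after members held 1.18% to 1.31% of member reads. DESeq2 1.42.0 and limma 3.58.1 were alternatives. Coordinates came from GENCODE 29 (GRCh38) and start sequences from RefSeq.

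On simulated data for this comparison (13904 genes), 2% of genes changed by 1.5-fold were recovered, 36% by 2-fold, and 100% by 4-fold and by 8-fold, with 7 false among 126 calls. KO and WT libraries with the same replicate number did not deviate together (correlations 0.129, -0.0405 and 0.00691), so no pairing was used. Nothing in the labels says that the replicates came from separate thaws or knockouts, so p-values measure the spread between these samples.

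Members and gene lists were chosen with earlier results of these data known. Genes named are the members highest and lowest by TPM and by fold change, the stalk genes, paralogues and their parents, RPL5 and RPL11, and the abundant genes of each list; some of these are not reported here.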

Additional observations from a re-analysis of the deposited data

How the results depend on the processing

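Of the alternatives tried, DESeq2 called 3 ribosomal protein genes (RPL22L1, RPS4X and RPL36A), leaving out the filter on low counts called 1 (RPL22L1), and leaving out single libraries called 0 to 4. The replicate block, limma-voom, limma on TPM, joined transcript rows, added pseudogene reads and the other scalings called 0. Over all genes the count was 579 by DESeq2, 602 with no filter, 187 with transcript rows joined, 66 and 48 with limma on log2(TPM + 0.1) and log2(TPM + 1), and 2 to 1315 without single libraries. The edgeR fit with the replicate number as a block called 14 genes. DESeq2 called 2 ribosome assembly genes. Without single libraries, 0 to 3 translation genes, 0 to 10 ribosome assembly genes and 0 to 4 mitochondrial ribosomal protein genes were called. The median over other X-linked genes was -0.22 on log2(TPM + 1).

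The median of the 5 X-linked members stayed between -0.85 and -0.55 in the alternatives run. Of 957 alternative values of 48 named genes, 30 changed sign, none of them called. On library totals alone EEF1A1 was -0.01, NOP10 -0.02, RPL14 -0.04, RPLP2 -0.01, and RPS10-NUDT3 -0.04 on the log2 scale. With the effective length as an offset RPL14 was -0.01 and RPS10-NUDT3 -0.02. RPL14 was -0.0031 by limma-voom, -0.00089 over protein-coding genes only and -0.0029 with the replicate block, and RPL17-C18orf32 was -0.05 with transcript rows joined. Without single libraries, EEF1A1 ran from -0.05 to 0.17, FAU from -0.26 to 0.01, NOP10 from -0.06 to 0.20, RHEB from -0.14 to 0.02, RPL14 from -0.19 to 0.18, RPL41 from -0.23 to 0.02, RPLP2 from -0.11 to 0.23, RPS10-NUDT3 from -0.17 to 0.23 and VIM from -0.30 to 0.15. The causes were not tested.

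Windows of 2 Mb and 10 Mb for neighbours were chosen after seeing the data and gave Pearson's r = 0.574 (79 members) and 0.681 (86 members). With 2 Mb, 11 of the 13 members with a neighbour median under -0.25 were below zero. Depth was alike in all libraries, and the 3 libraries per group limit the size of change that can be called.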
